A study of Mus musculus with 2 samples.

Results

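The genes described are 9 of the phagocyte NADPH oxidase and of the enzymes that clear its products, followed through the cells of healing skull defects. Of these, 5 encode parts of the oxidase (Cybb, Cyba, Ncf1, Ncf4 and Rac2) and 4 encode antioxidant enzymes (Sod1, Sod2, Cat and Prdx5). The 9 symbols were chosen by name among 27998 genes in the deposited tables, and each symbol matched 1 gene. The level of each gene was read in cell types called from marker genes, separately in each library.

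The cells came from 2 mm defects of the parietal bone in C57BL/6 wild type mice, collected on day 14 after surgery. One group of defects held a CGG-Cit hydrogel and the other a CGG hydrogel, so both groups had the same injury and differed in the implant. Tissue was trimmed, digested with collagenase and sequenced cell by cell with the 10x 3′ droplet method, which counts each messenger RNA once through a unique molecular identifier (UMI). The study asked which cell populations the defects hold and how they bear on progenitor recruitment. There was 1 library per group, and the labels do not state the number, age or sex of the mice behind each. No test between the groups was therefore possible. Intervals in the text are 95% intervals that cover counting error alone, not the difference between animals.

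After filtering, the CGG-Cit library held 9994 cells with a median of 5913.5 UMIs, and the CGG library held 11048 cells with a median of 3969 UMIs. The libraries shared 34 cell barcodes, of which 26 were among the kept cells. Each cell was placed in a class when its best marker score passed a minimum and stood clear of the next class. None of the 9 genes was a marker. All 10 neutrophil markers and all 10 monocyte or macrophage markers were highest in their own class in both libraries. Neutrophils numbered 2725 in CGG-Cit and 1365 in CGG, monocytes or macrophages 631 and 1689, B lineage cells 3883 and 933, and mesenchymal cells 52 and 3427. A further 414 and 1772 cells entered no class. Markers of other cell types also differed within classes. In neutrophils the 10 mesenchymal markers summed to 22.2 UMIs per 1000000 UMIs of the class (CPM) in CGG-Cit and 1271 CPM in CGG, with none at 0 in either library. The 10 monocyte or macrophage markers summed to 56.7 and 304 CPM there.

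The phagocyte oxidase takes electrons from NADPH and passes them across a membrane to oxygen, which makes superoxide. Cybb encodes gp91phox, the catalytic subunit, and Cyba encodes p22phox, its partner in the membrane. Ncf1 (p47phox) and Ncf4 (p40phox) are cytosolic subunits that join the membrane pair on activation, together with the small GTPase Rac2. Superoxide dismutases turn superoxide into hydrogen peroxide, Sod1 in the cytosol and Sod2 in mitochondria. Catalase (Cat) and peroxiredoxin 5 (Prdx5) then remove the peroxide. Neutrophils are known for their strong oxidase, which they use against microbes.

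A pair of short motifs was looked for in the RefSeq start regions of these genes (GRCm38.p6). GAGGAA is the core bound by PU.1, a myeloid transcription factor known to act on Cybb, and TGACNNNGC is the core of the antioxidant response element bound by NRF2. RefSeq windows were found for 7 of the 9 genes (none for Ncf4 and Rac2), each of 300 bases, from 250 before the start to 50 after it. Both strands were searched. GAGGAA was present in 3 of the 7 windows and in 28.3% of all 32851 windows of that length. TGACNNNGC was present in 1 of the 7 and in 12.4% of all windows. The sequences of 4 windows are shown, from 225 bases before the start to 25 after it. They belong to the catalytic oxidase subunit, to the antioxidant gene that follows the oxidase genes across cell types, and to the 2 dismutase genes that differed between the neutrophils of the 2 libraries. Capitals mark a motif match on either strand, and the letters are read 5′ to 3′ along the gene.
Cybb, chrX:9469300-9469549, minus strand: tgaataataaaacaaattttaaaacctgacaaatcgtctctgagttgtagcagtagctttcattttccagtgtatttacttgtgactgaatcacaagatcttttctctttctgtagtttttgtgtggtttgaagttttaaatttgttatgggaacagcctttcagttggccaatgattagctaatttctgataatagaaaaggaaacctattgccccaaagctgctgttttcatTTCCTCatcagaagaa
Prdx5, chr19:6910082-6910331, minus strand: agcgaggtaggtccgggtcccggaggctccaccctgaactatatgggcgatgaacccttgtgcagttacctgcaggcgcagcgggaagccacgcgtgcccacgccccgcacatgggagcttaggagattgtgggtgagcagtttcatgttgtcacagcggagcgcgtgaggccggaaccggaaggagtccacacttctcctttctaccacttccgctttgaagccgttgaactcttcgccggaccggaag
Sod1, chr16:90220537-90220786, plus strand: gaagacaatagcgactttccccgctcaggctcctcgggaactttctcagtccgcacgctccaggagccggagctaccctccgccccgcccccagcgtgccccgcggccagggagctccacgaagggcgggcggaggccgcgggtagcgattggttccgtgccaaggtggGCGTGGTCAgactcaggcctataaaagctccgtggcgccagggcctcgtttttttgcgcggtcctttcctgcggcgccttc
Sod2, chr17:13007614-13007863, plus strand: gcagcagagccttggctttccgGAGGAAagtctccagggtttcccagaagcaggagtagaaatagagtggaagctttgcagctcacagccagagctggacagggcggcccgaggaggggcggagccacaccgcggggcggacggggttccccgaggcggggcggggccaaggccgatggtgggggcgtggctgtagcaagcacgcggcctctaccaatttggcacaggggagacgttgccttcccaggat
The Cybb match is GAGGAA on the opposite strand and begins at base 10 of the transcript. The Sod1 match is TGACNNNGC on the opposite strand and begins 56 bases before the start. The Sod2 match is GAGGAA and begins 203 bases before the start. Prdx5 held neither set of letters in its window. A match is a description of these letters and not a measured binding site.

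The oxidase genes were highest in phagocytes in both libraries. Summed over the 5 genes, the level was 5343 CPM in CGG-Cit neutrophils and 4962 CPM in CGG neutrophils. It was 3737 and 3752 CPM in monocytes or macrophages. In erythroid cells, which do not use the oxidase, the same sum was 104 CPM in CGG-Cit and 110 CPM in CGG. The 10 most abundant genes made up 60.6% and 68.6% of erythroid UMIs, against 45.1% and 41.5% of neutrophil UMIs. CPM values of the other erythroid genes are lowered by that share. The classes ranked below are those with at least 50 cells in a library, which were 10 in each.

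Cybb, the catalytic subunit, stood at 1466 CPM in CGG-Cit neutrophils and 1554 CPM in CGG neutrophils. Monocytes or macrophages followed with 1094 and 1110 CPM, then dendritic cells with 504 and 362 CPM and myeloid progenitors with 174 and 146 CPM. These 4 classes held the same order in both libraries with no overlap of intervals between neighbours. The lowest class was erythroid, with 9.40 and 21.3 CPM. With every cell thinned to 1000 UMIs, 53.7% of CGG-Cit neutrophils and 52.6% of CGG neutrophils had a Cybb UMI, against 1.34% and 3.94% of erythroid cells. Thinning left out 89 and 67 neutrophils. Without thinning the neutrophil shares were 74.3% and 71.3% and the erythroid shares 9.01% and 16.5%, at median depths of 5864 and 4455 UMIs per neutrophil and 13490 and 10750 UMIs per erythroid cell.

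Cyba, the membrane partner, was high in both phagocyte classes. It had 1791 CPM in CGG-Cit and 2040 CPM in CGG monocytes or macrophages, and 1770 and 1513 CPM in neutrophils. The 2 classes were not separated beyond their intervals in CGG-Cit and were separated in CGG. Cyba was also present at 707 and 673 CPM in T or NK cells. On the opposite strand Cyba overlaps Gm20388, and no label or header states whether the counting used strand; the same holds for Ncf1 with Gtf2ird2, Sod1 with Scaf4 and Prdx5 with Trmt112.

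The cytosolic genes were led by neutrophils as well. Ncf1 had 590 CPM in CGG-Cit and 612 CPM in CGG neutrophils, and its next class was dendritic, with 262 and 299 CPM. Monocytes or macrophages had 156 and 178 CPM of Ncf1. Ncf4 had 364 and 283 CPM in neutrophils, 247 and 161 CPM in monocytes or macrophages and 166 and 128 CPM in myeloid progenitors. Rac2 followed another order: after neutrophils, with 1153 CPM in CGG-Cit and 1000 CPM in CGG, came T or NK cells, with 798 and 748 CPM. Rac2 was at 450 and 263 CPM in monocytes or macrophages, below B lineage cells at 580 and 512 CPM.

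The antioxidant genes did not share one pattern. Prdx5 had its highest level in neutrophils, with 2626 CPM in CGG-Cit and 2265 CPM in CGG. Its next levels were 1279 CPM in CGG-Cit monocytes or macrophages and 628 CPM in CGG myeloid progenitors, and its lowest were 42.2 and 29.3 CPM in erythroid cells. Sod1 and Cat had their lowest level in neutrophils in both libraries. Sod1 stood at 13.5 CPM in CGG-Cit and 25.9 CPM in CGG neutrophils, while every other class ranked lay between 70.8 and 256 CPM in CGG-Cit and between 72.2 and 209 CPM in CGG. Cat stood at 8.78 and 11.7 CPM in neutrophils, and the next lowest class had 26.3 CPM in CGG-Cit (myeloid progenitors) and 34.4 CPM in CGG (T or NK cells).

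A CPM value divides by all UMIs of a class, and the genes S100a8 and S100a9 alone made up 29.95% of neutrophil UMIs in CGG-Cit and 28.2% in CGG. With the 10 most abundant genes of each class left out of its total, Sod1 stood at 24.6 and 44.2 CPM in neutrophils. The next lowest class in that count among those with at least 50 cells in both libraries was dendritic in CGG-Cit, with 78.3 CPM, and myeloid progenitors in CGG, with 125 CPM. Cat stood at 16.0 and 19.9 CPM in neutrophils on the same scale, against 28.7 CPM in CGG-Cit myeloid progenitors and 37.8 CPM in CGG T or NK cells.

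Sod2, the mitochondrial dismutase, ranked differently in the 2 libraries. It was at 58.9 CPM in CGG-Cit neutrophils, the lowest of 10 classes there, with an interval of 55.7 to 62.2 that overlapped those of dendritic cells (61.3 CPM) and mesenchymal cells (64.1 CPM). It was at 149 CPM in CGG neutrophils, below mural cells alone (151 CPM), whose interval overlapped. The highest class was 2.17 times the lowest in CGG-Cit and 3.96 times in CGG, a narrower range than for the other 8 genes.

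**Figure D1:**
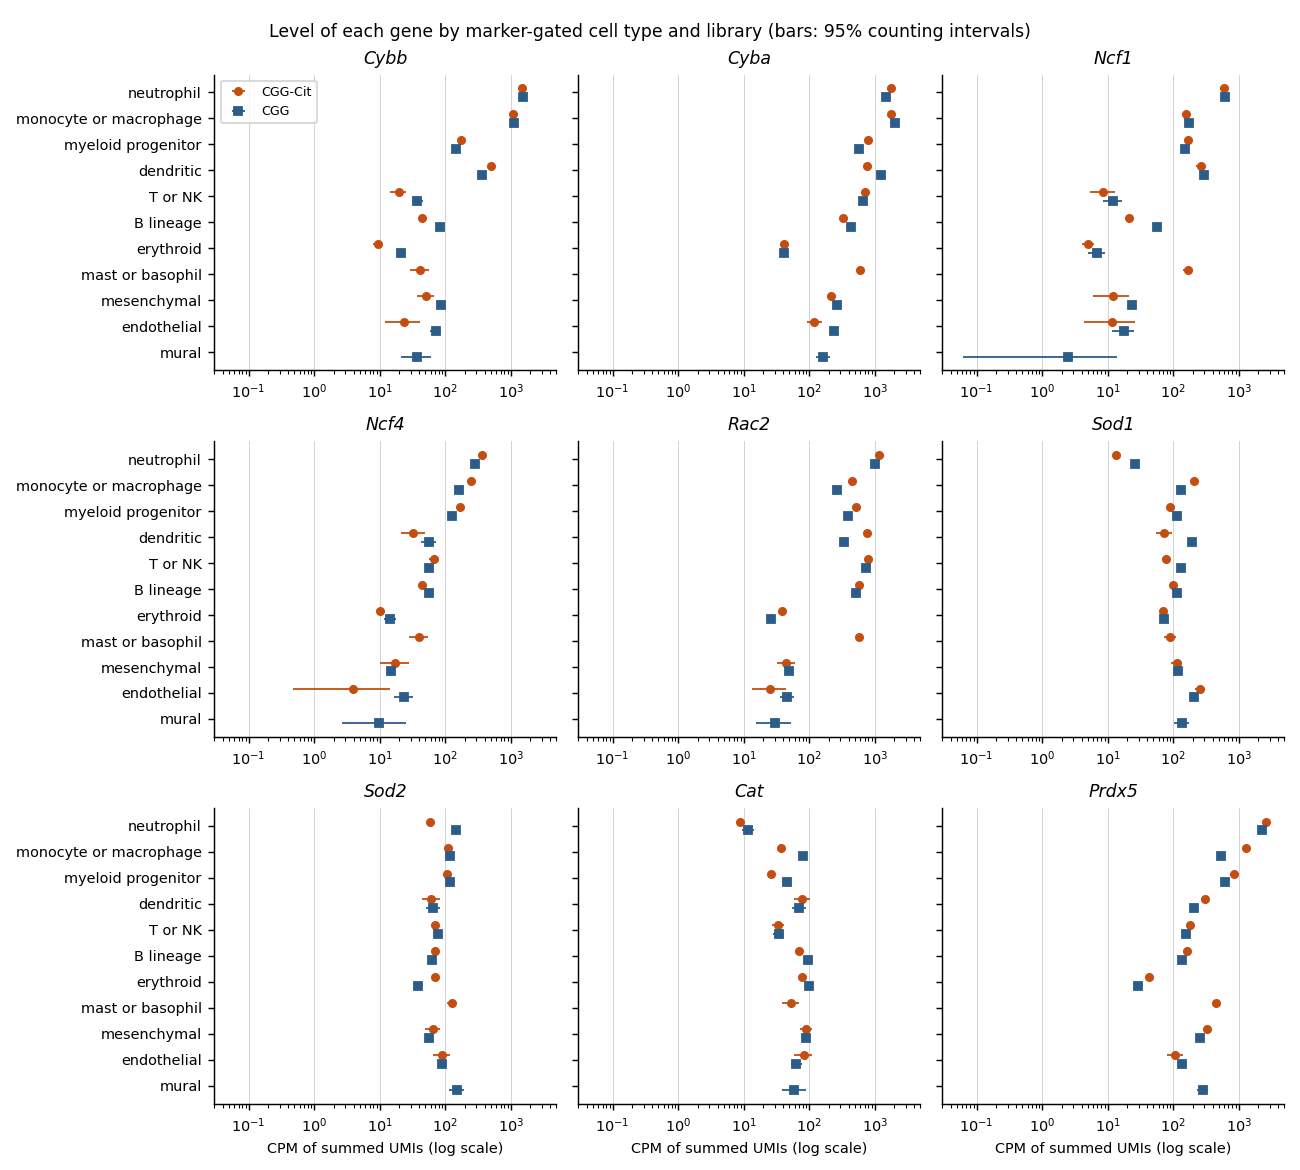
CPM of summed UMIs (log axis) of each gene, by marker-called cell class (rows) and library (orange circles CGG-Cit, drawn above blue squares CGG); bars are 95% counting intervals, and classes under 50 cells in a library are left out. The highest Cybb level, in neutrophils, is 156 times the lowest, in erythroid cells, in CGG-Cit and 73.0 times in CGG, while Sod1 and Cat are lowest in neutrophils. The totals include the most abundant genes of each class, whose share is largest in erythroid cells.

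Levels of a gene pair across classes were compared over 20 points, 10 classes in each of 2 libraries, on log2(CPM + 5). The points of a library share its depth and its free RNA, so the values are descriptions. Cybb correlated with Ncf1 at r = 0.88, with Cyba at 0.82 and with Prdx5 at 0.81. Its r with Sod1 was -0.321 and with Cat -0.515. Among all genes with at least 50 CPM in a class, the 3 most like Cybb were Aldh3b1 (r = 0.97), the complement regulator Cfp (0.95) and Plaur, the urokinase receptor (0.95). The 3 most like Ncf1 were Ogfrl1 (0.95), Spi1 (0.94), which encodes PU.1, and Alox5ap (0.94). Rac2 was most like Gmfg (0.97), Arhgap15 (0.97) and Coro1a (0.96). Cyba was most like Actr3 (0.95), Rhog (0.95) and Myo9b (0.94), and Ncf4 like Gm21975 (0.92), AB124611 (0.91) and Fam49b (0.90). Prdx5 was most like Msrb1 (0.95), a methionine sulfoxide reductase, Pgd (0.94), an NADPH-making enzyme, and Lamtor4 (0.92). The antioxidant genes with flatter patterns had weaker matches: Cops2 (0.88), Zfos1 (0.86) and Piezo1 (0.86) for Sod1, Svbp (0.85), Nudt9 (0.80) and March5 (0.78) for Cat, and Tnfrsf21 (0.75), Dgkg (0.74) and Etf1 (0.74) for Sod2.

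Within neutrophils, Cybb was the one of the 5 oxidase genes that differed most between stages, in both libraries. Cells were split by markers into a granule-rich subgate (Ltf, Ngp, Camp and others), with 1767 CGG-Cit and 895 CGG cells, and a mature subgate (Csf3r, Cxcr2, Il1b and others), with 928 and 461 cells. The precursor subgate held 30 and 9 cells and is not described further. The myeloid progenitor class set beside them was mixed. Of its cells, 274 fell in the cluster named for progenitors, 305 in unnamed clusters and 39 in the mast or basophil cluster. Of its 7 markers, 5 in CGG-Cit and 6 in CGG were highest in it. In CGG-Cit, Sod1 was at 51.2 CPM in the cluster led by Elane and 169 CPM in an unnamed one led by F13a1. In CGG-Cit, Cybb had 174 CPM in myeloid progenitors, 1694 CPM in granule-rich neutrophils and 208 CPM in mature neutrophils. In CGG the 3 values were 146, 1830 and 268 CPM. The mature level was 0.123 of the granule-rich level in CGG-Cit (0.113 to 0.133) and 0.147 in CGG (0.133 to 0.161). The share of cells with a Cybb UMI at 1000 UMIs was 74.0% and 72.0% in granule-rich cells and 14.1% and 16.7% in mature cells. Clusters found without the 9 genes divided neutrophils otherwise. The cluster led by Retnlg, with Cxcr2 among its top genes, had 1124 and 1571 CPM of Cybb. The cluster led by Gm5483, with Il1b among its top genes, had 203 and 349 CPM. The clusters led by Ly6g and by Chil3 had 2325 and 2402 CPM and 1497 and 1703 CPM.

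Rac1, the widely expressed relative of Rac2 that is not among the 9 genes, was higher in mature than in granule-rich cells. It had 246, 240 and 340 CPM along the 3 stages in CGG-Cit and 255, 220 and 311 CPM in CGG. Mature cells had 1.42 times the granule-rich level of Rac1 in CGG-Cit (1.32 to 1.52) and 1.42 times in CGG (1.28 to 1.57).

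The other oxidase genes among the 9 differed less between the 2 subgates. Ncf1 stood at 607 and 531 CPM in granule-rich and mature CGG-Cit cells, and at 615 and 593 CPM in CGG. Rac2 stood at 1161 and 1125 CPM in CGG-Cit and 997 and 1024 CPM in CGG. Ncf4 was lower in mature than in granule-rich cells, by the same 1.58-fold in both libraries. Cyba was lower in mature cells by 1.40-fold in CGG-Cit and 1.18-fold in CGG, and Prdx5 by 1.43-fold and 1.32-fold. Sod1 and Cat were lower in granule-rich neutrophils than in progenitors: Sod1 had 90.0 CPM in CGG-Cit progenitors and 12.0 CPM in CGG-Cit granule-rich cells, with 116 and 24.3 CPM in CGG. Sod2 ran in opposite directions in the 2 libraries. It was lower in granule-rich cells than in progenitors in CGG-Cit, with a ratio of 0.578 (0.536 to 0.624), and higher in CGG, with a ratio of 1.33 (1.18 to 1.49). The difference between these ratios was not tested.

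**Figure D2:**
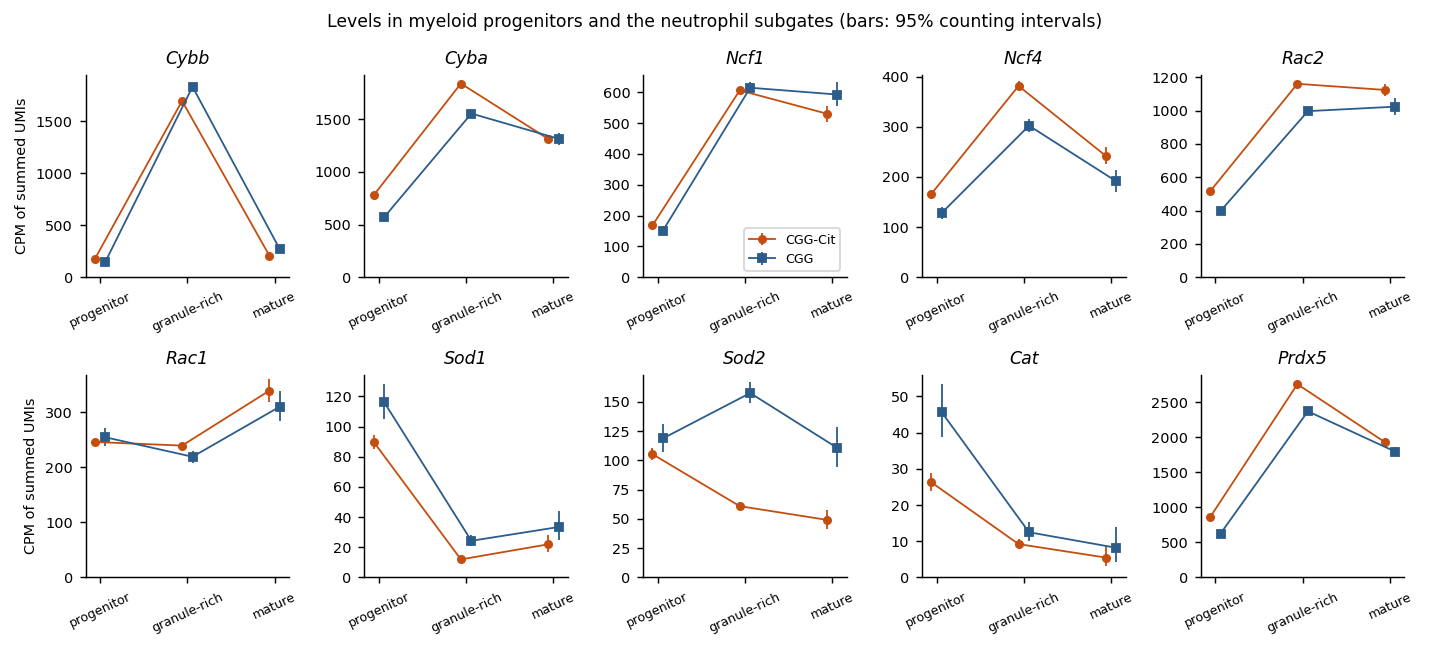
CPM of summed UMIs (linear axes that start at 0) in myeloid progenitors, granule-rich neutrophils and mature neutrophils; lines join the values of 1 library (orange circles CGG-Cit, blue squares CGG) and bars are 95% counting intervals. Cybb peaks in granule-rich cells and Rac1 is highest in mature cells in both libraries, and the Sod2 lines part in the neutrophil subgates.

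Between the libraries, the oxidase genes of neutrophils differed little and the 2 dismutases differed most. A gene was counted as past the fold when its CPM ratio was over 1.5 or under the inverse of 1.5, among genes with at least 10 CPM on average and 20 UMIs. None of the 9 genes was past the fold upward in neutrophils, where 2.84% of 5701 measured genes were. Of the 9, Sod1 and Sod2 were past it downward, where 10.3% of measured genes were. The oxidase ratios of CGG-Cit over CGG were 0.944 for Cybb (0.925 to 0.962), 1.17 for Cyba (1.15 to 1.19), 0.964 for Ncf1 (0.934 to 0.995), 1.29 for Ncf4 (1.23 to 1.34) and 1.15 for Rac2 (1.13 to 1.18). Prdx5 had a ratio of 1.16 (1.14 to 1.18). The median log2 ratio was 0.21 over the 5 oxidase genes and -0.68 over the 4 antioxidant genes, against -0.06 over all measured genes.

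Sod2 had 1301 UMIs in CGG-Cit neutrophils and 1348 in CGG neutrophils, from 2725 and 1365 cells. On the CPM scale this gave 58.9 and 149, a ratio of 0.396 (0.367 to 0.428). The ratio was 0.387 in granule-rich cells (60.9 against 157 CPM) and 0.445 in mature cells (49.2 against 110 CPM). In the 4 neutrophil clusters found without the 9 genes, Sod2 was at 58.1, 74.5, 58.1 and 47.4 CPM in CGG-Cit against 209, 139, 117 and 129 CPM in CGG, so it was lower in CGG-Cit in each.

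Sod1 was scarcer, with 299 UMIs in CGG-Cit and 235 UMIs in CGG neutrophils. Its ratio was 0.522 (0.439 to 0.622), with 0.493 in granule-rich cells (12.0 against 24.3 CPM) and 0.657 in mature cells (22.0 against 33.5 CPM). In the clusters led by Retnlg, Ly6g, Gm5483 and Chil3, Sod1 was at 13.7, 5.63, 23.5 and 13.4 CPM in CGG-Cit. In CGG it was at 16.7, 16.7, 34.6 and 20.5 CPM. It was lower in CGG-Cit in each, but within 1.5-fold in those led by Retnlg and Gm5483. Sod1 and Sod2 were again the 2 members past the fold downward in each subgate, where 9.71% of measured genes in granule-rich cells and 18.4% in mature cells were. Cat had a ratio of 0.751 (0.590 to 0.961) on 194 and 106 UMIs.

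Mesenchymal and macrophage markers moved with these ratios, as given above. All 10 mesenchymal markers and all 10 monocyte or macrophage markers were lower in CGG-Cit neutrophils. Their summed level in CGG neutrophils was 2.77% and 2.74% of that in the class itself. Scaled by those shares, the Sod1 levels of mesenchymal cells and of monocytes or macrophages were 3.34 and 3.67 CPM, beside 25.9 CPM in CGG neutrophils. For Sod2 the scaled levels were 1.57 and 3.26 CPM, beside 149 CPM. With the scaled levels taken off in both libraries, the ratio was 0.557 for Sod1 and 0.399 for Sod2. The ratio of Cat turned to 1.17.

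**Figure D3:**
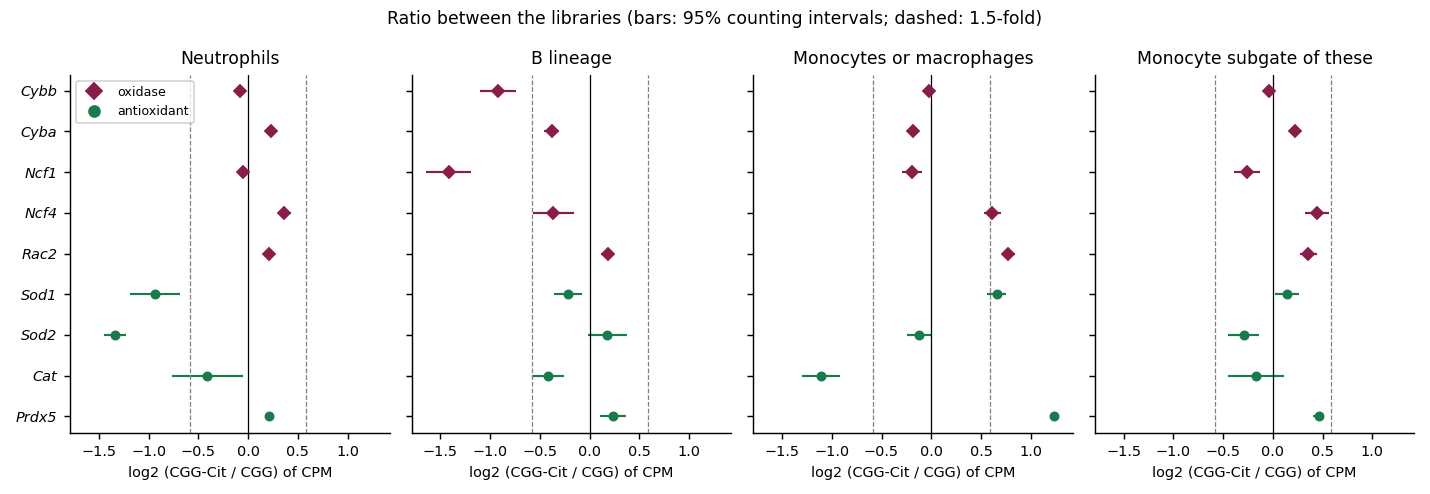
Log2 ratio of CPM, CGG-Cit over CGG, for each gene in neutrophils, B lineage cells, monocytes or macrophages and the monocyte subgate of that class; purple diamonds are oxidase genes, green circles antioxidant genes, bars 95% counting intervals and dashed lines 1.5-fold. Sod1 and Sod2 lie left of the lower line in neutrophils, and the 5 genes beyond a line in the whole monocyte or macrophage class lie between the lines in its monocyte subgate.

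Monocytes or macrophages showed larger ratios for the class as a whole. Of the 9 genes, 4 were past the fold upward, with 19.2% of 7500 measured genes past it in that direction. Prdx5 had 1279 CPM in CGG-Cit and 544 CPM in CGG, a ratio of 2.35 (2.28 to 2.42). Rac2 had 450 and 263 CPM (1.71), Sod1 212 and 134 CPM (1.58) and Ncf4 247 and 161 CPM (1.53). Cat was past the fold downward, with 37.3 and 80.3 CPM, a ratio of 0.464 (0.406 to 0.530), and 15.7% of measured genes were. Cybb, with 1094 and 1110 CPM, had a ratio of 0.985 (0.959 to 1.01).

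The class was not made of the same cells in the 2 libraries. Its macrophage subgate (C1qa, Mrc1, Trem2 and others) held 28 CGG-Cit cells and 1199 CGG cells, and its monocyte subgate (Ly6c2, Ccr2, Vcan and others) held 603 and 490 cells. In CGG, macrophages had 0.391 of the monocyte level of Prdx5 (375 against 957 CPM), 0.635 of that of Rac2, 0.563 of that of Sod1 and 2.36 times that of Cat. Cyba was higher in macrophages by 1.49 times in CGG.

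Within monocytes the ratios of the 5 genes named above as past the fold lay nearer to 1. None of the 9 genes was past the fold upward, with 6.89% of 7289 measured genes past it, and none was past it downward, with 8.52% past it. Prdx5 had 1316 CPM in CGG-Cit and 957 CPM in CGG monocytes, a ratio of 1.37 (1.33 to 1.43). The ratios were 1.36 for Ncf4, 1.28 for Rac2, 1.10 for Sod1 and 0.890 for Cat. Ncf1 had 0.836 and Sod2 0.816 within monocytes, against 0.877 and 0.920 over the whole class, so these lay further from 1. Cyba had 1.16 within monocytes and 0.878 over the whole class, on the other side of 1. Cybb was at 1101 and 1129 CPM, a ratio of 0.975 (0.941 to 1.01).

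The other genes of these pathways were counted by list. Of 11 other oxidase subunits and regulators measured in neutrophils, none was past the fold in either direction (2.84% of all measured genes upward and 10.3% downward), and the list median was 0.11 on the log2 scale. Among the most abundant were Arhgdib, with 3111 CPM in CGG-Cit and 2578 CPM in CGG, the GTPase Cdc42 with 669 and 669 CPM, and the GTPase Rap1b with 346 and 441 CPM. None of the 9 other NOX family genes reached the level at which genes were counted. The NADPH supply, which feeds both the oxidase and the reductases, had a list median of 0.05, and 0 of 6 measured genes were past the fold. Taldo1 had 939 and 791 CPM, Tkt 724 and 697 CPM, Pgd 300 and 289 CPM and Nadk 162 and 169 CPM.

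Of the 4 other antioxidant lists, the superoxide dismutase family had 0 of 2 genes measured in neutrophils. The counts of the rest stand beside the 10.3% of all measured genes past the fold downward and 2.84% upward. Every gene of these lists past the fold was lower in CGG-Cit, while the list medians differed. Of 8 measured peroxiredoxin and thioredoxin genes, 4 were past the fold downward and none upward, with a list median of -0.61 on the log2 scale. Txn1, the cytosolic thioredoxin, had 1629 CPM in CGG-Cit and 1478 CPM in CGG, and Prdx6 had 469 and 561 CPM. Txnip, an inhibitor of thioredoxin, had 167 and 323 CPM, a ratio of 0.517, and the reductase Txnrd1 had 57.1 and 115 CPM, a ratio of 0.495. The other 2 past the fold, named after their values were seen, were Prdx1 (40.5 and 110 CPM) and Srxn1 (4.30 and 16.9 CPM).

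The glutathione list had a median of 0.01 on the log2 scale. Of 11 measured genes, none was past the fold upward and 1 downward. Gpx1, the cytosolic glutathione peroxidase, had 1089 CPM in CGG-Cit and 957 CPM in CGG neutrophils, the reductase Gsr 765 and 778 CPM, Mgst1 634 and 506 CPM, and the cystine transporter gene Slc7a11 435 and 613 CPM. The 1 gene past the fold, named after its values were seen, was Gpx3 with 3.98 and 50.7 CPM. Of 8 measured genes of the NRF2 pathway, 3 were past the fold downward, with a list median of -0.39 on the log2 scale. Fth1, the ferritin heavy chain, had 4473 and 8461 CPM, a ratio of 0.529, while the light chain Ftl1 had 1912 and 2110 CPM. Nfe2l2, which encodes NRF2, had 106 and 150 CPM, and its partner Mafg had 106 and 93.5 CPM. The other 2 past the fold, named after their values were seen, were Sqstm1 (49.1 and 78.3 CPM) and Hmox1 (20.9 and 34.4 CPM). In neutrophils the mesenchymal markers summed to 22.2 and 1271 CPM and the monocyte or macrophage markers to 56.7 and 304 CPM. Their part in the ratios of the neutrophil lists was not tested.

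The same lists were counted in monocytes, where 6.89% of all measured genes were past the fold upward and 8.52% downward. None of 11 measured oxidase subunits and regulators was past the fold. Of 11 peroxiredoxin and thioredoxin genes 3 were past it downward, and so were 3 of 8 genes of the NRF2 pathway. The list medians were 0.17 and -0.45 on the log2 scale, against 0.05 over all measured genes. Of 15 glutathione genes 1 was past the fold upward, the transferase gene Mgst1 with 443 and 276 CPM, and 2 downward. Fth1 had 3585 CPM in CGG-Cit and 6579 CPM in CGG monocytes, a ratio of 0.545, and Nfe2l2 had 161 and 340 CPM, a ratio of 0.473. Of 7 NADPH supply genes 1 was past the fold upward, Taldo1, with 755 and 495 CPM. In monocytes the mesenchymal markers summed to 14.4 CPM in CGG-Cit and 584 CPM in CGG, and 9 of 10 were lower in CGG-Cit, with 3 at 0 in CGG-Cit and 1 at 0 in CGG. Their part in the ratios of these lists was not tested.

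**Figure D4:**
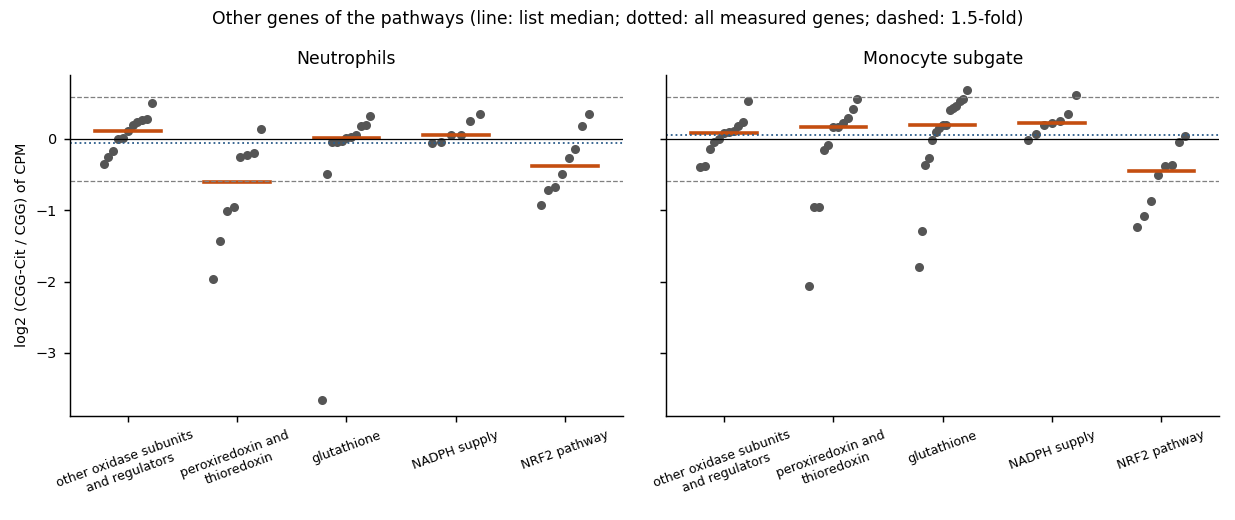
Log2 ratio of CPM, CGG-Cit over CGG, of the other measured genes of each pathway list in neutrophils (left) and in the monocyte subgate (right); each point is a gene, orange bars are list medians, the dotted line is the median of all measured genes and dashed lines mark 1.5-fold. The other oxidase subunits stay between the dashed lines in both panels, and the NRF2 pathway median is -0.39 in neutrophils and -0.45 in monocytes.

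B lineage cells, the largest class of the CGG-Cit library, had Cybb and Ncf1 at low levels that differed between the libraries. Cybb had 43.6 CPM in CGG-Cit and 82.8 CPM in CGG, a ratio of 0.526 (0.465 to 0.597), and Ncf1 had 21.5 and 57.4 CPM, a ratio of 0.374 (0.32 to 0.439). These 2 of the 9 genes were past the fold downward, with 9.42% of 7559 measured genes past it, and none was past it upward, with 3.49% past it. The other oxidase genes were within the fold. Rac2 had 580 and 512 CPM, a ratio of 1.13, Cyba 330 and 429 CPM (0.767) and Ncf4 44.1 and 57.0 CPM (0.774). Stages of B cells differed in Cybb and Ncf1. The cluster led by Ms4a1, which encodes CD20 of later B cells, had 604 CGG-Cit and 314 CGG cells, with Cybb at 178 and 222 CPM and Ncf1 at 129 and 192 CPM. The cluster led by Dnajc7 and Rag1, a gene of precursor B cells, had 1795 and 340 cells, with Cybb at 67.8 and 83.4 CPM and Ncf1 at 29.2 and 47.6 CPM. The cluster led by Vpreb1 and Igll1 had 434 and 153 cells, with Cybb at 15.4 and 19.6 CPM and Ncf1 at 7.60 and 7.86 CPM. The cluster led by Myl4 and Hist1h2ae had 658 and 78 cells, with Cybb at 17.0 and 26.6 CPM and Ncf1 at 4.69 and 5.32 CPM. The part of the stage mix in the class ratios was not tested. With the levels scaled from markers of neutrophils, monocytes or macrophages and mesenchymal cells taken off, B lineage cells kept 22.8 and 44.5 CPM of Cybb (ratio 0.511) and 15.4 and 48.9 CPM of Ncf1 (ratio 0.316).

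The remaining classes are given by count. In myeloid progenitors 1 of 9 genes was past the fold in either direction, Cat with 26.3 CPM in CGG-Cit and 45.6 CPM in CGG (0.576), and 7.64% of measured genes were. This Cat ratio stayed past the fold in 7 of 8 alternatives, with log2 ratios up to -0.13. In T or NK cells 2 of 9 were, Cybb (19.4 and 37.7 CPM) and Sod1 (78.3 and 131 CPM), with 16.7% of measured genes. In T or NK cells 9 of 10 mesenchymal markers were lower in CGG-Cit too, with sums of 16.7 and 939 CPM and 3 at 0 in CGG-Cit, as were 9 of 10 monocyte or macrophage markers, with sums of 385 and 552 CPM and 4 at 0 in CGG-Cit. Their part in these ratios was not tested. Cybb in T or NK cells stayed past the fold in 8 of 10 alternatives, with log2 ratios up to -0.15. In mesenchymal cells 2 of 9 were, Cybb (51.1 and 85.2 CPM) and Ncf1 (12.0 and 23.6 CPM), with 19.6% of measured genes. The median depth of mesenchymal cells was 16608.5 UMIs in CGG-Cit and 2752 UMIs in CGG. Among mesenchymal clusters in CGG, Cybb ran from 17.4 CPM in that led by Tnxb to 469 CPM in that led by Sbsn. The part of depth and of the cluster mix in the mesenchymal ratios was not tested. Taking off the scaled levels left 19.3 and 17.8 CPM of Cybb in mesenchymal cells, and with clusters in place of gates the log2 ratio of Ncf1 there turned to 0.24. In endothelial cells 4 of 9 were, all oxidase genes lower in CGG-Cit, with 27.5% of measured genes. The CGG-Cit library had 50 endothelial and 52 mesenchymal cells. Of the 4, Ncf4 had 3.94 CPM from 2 UMIs there, so its ratio of 0.167 runs from 0.0195 to 0.644. All 10 neutrophil markers (658 and 1402 CPM in sum), all 10 monocyte or macrophage markers (33.5 and 388 CPM, with 6 at 0 in CGG-Cit) and all 7 myeloid progenitor markers (102 and 387 CPM) were lower in CGG-Cit endothelial cells as well. With the levels scaled from neutrophil, monocyte or macrophage and mesenchymal markers taken off, Cybb, Cyba and Rac2 in endothelial cells were no longer past the fold, with log2 ratios of -0.16, -0.57 and -0.44.

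Dendritic and erythroid cells had ratios in both directions. In dendritic cells (89 in CGG-Cit and 116 in CGG) 5 of 9 genes were past the fold in either direction, with 48.1% of measured genes. Rac2 had 751 and 338 CPM (2.22) and Prdx5 309 and 206 CPM (1.501), while Cyba had 764 and 1229 CPM (0.621), Ncf4 32.8 and 56.3 CPM (0.582) and Sod1 72.7 and 196 CPM (0.370). Prdx5 in dendritic cells lay at the limit and stayed past the fold in 2 of 9 alternatives, with log2 ratios down to 0.09. Cyba stayed past it in 8 of 10, with log2 ratios up to -0.15, and Rac2 in 9 of 10, down to 0.54. The cluster led by Siglech, a plasmacytoid marker, had 85 and 50 cells and the cluster led by Cd209a and Ccr7 had 55 and 190 cells. Rac2 was at 869 and 824 CPM in the Siglech cluster and at 386 and 222 CPM in the Cd209a cluster. Cyba was at 760 and 639 CPM in the Siglech cluster and at 1337 and 1173 CPM in the Cd209a cluster, higher in CGG-Cit in each. Ncf4 was at 66.2 and 42.0 CPM and at 116 and 70.8 CPM, also higher in each. Sod1 was at 55.1 and 123 CPM and at 140 and 206 CPM, lower in each. The part of the cluster mix in the class ratios was not tested. In erythroid cells 3 of 8 measured genes were past the fold, with 37.4% of measured genes: Sod2 (70.7 and 38.2 CPM), Rac2 (39.2 and 26.0 CPM) and Cybb (9.40 and 21.3 CPM). In erythroid cells Rac2 stayed past the fold in 3 of 10 alternatives, with log2 ratios down to 0.24, and Sod2 in 7 of 10, down to 0.55. The erythroid cluster led by Car1 had 153 CGG-Cit and 20 CGG cells, with Sod2 at 205 CPM in CGG-Cit. In the erythroid clusters led by Hemgn and by Tmcc2, Sod2 was at 71.4 and 56.0 CPM and at 24.4 and 18.6 CPM. The part of the cluster mix in the erythroid ratio of Sod2 was not tested. The Cybb level scaled from neutrophil and monocyte or macrophage markers was 7.83 and 4.16 CPM in CGG-Cit erythroid cells and 6.07 and 14.1 CPM in CGG erythroid cells, which together is no less than the level measured in CGG-Cit. With clusters in place of gates, the log2 ratio turned to 0.12 for Cybb in erythroid cells and to 0.37 for Ncf4 in dendritic cells.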

How the data were processed

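Per the labels' protocols, 1 library per hydrogel was made with the 10x 3′ method. Per the file headers, the authors deposited UMI counts per gene and cell from Cell Ranger 4.0.0; the submitters' processing notes name version 3.0 and the mm10 build. Cells with under 200 genes or over 20% mitochondrial UMIs were left out, then doublets: 537 by Scrublet in CGG-Cit, and in CGG, where Scrublet called 0.00814% of barcodes, the 1231 highest scores, at 0.8% per 1000 barcodes. A cell entered a class when the mean of its 5 highest scaled markers was at least 0.25 and 0.10 above the next class, and neutrophils and monocytes or macrophages were split by their highest subgate score. UMIs were summed per class and library and given per 1000000 UMIs (CPM) with exact Poisson intervals; ratios carry exact conditional binomial intervals, shares exact Clopper-Pearson ones, at 95%, for counting error only. Log2 ratios add 0.5 UMI to each sum. Clusters (Leiden, seed 7) were made without the 9 genes. The ratio calculation was tested on simulated data.

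The members and lists were chosen with earlier results of these data known. Genes named besides the 9 were the 4 highest of each list in a class, the 3 most alike per member, and, where a count was small, those said to be named after their values were seen. One item that this rule names is not reported here. The alternatives tried were other gates, filters, clusters, thinning, scalings and fold limits, given at the close. Tools were Python 3.11.15, scanpy 1.11.5, numpy 2.4.6, scipy 1.17.1 and pandas 2.3.3.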

Additional observations from a re-analysis of the deposited data

Results flagged for a closer look

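Ratios of the same gene that ran past 1.5-fold in opposite directions in 2 classes were looked for among the 9 genes. With 1 library per group, the difference between the classes was not tested in any of these cases. Ncf4 had a ratio of CGG-Cit over CGG of 1.53 in monocytes or macrophages, against 0.582 in dendritic cells and 0.167 in endothelial cells, and the endothelial value rests on 2 UMIs in CGG-Cit. Sod1 had a ratio of 1.58 in monocytes or macrophages, against 0.522 in neutrophils, 0.370 in dendritic cells and 0.598 in T or NK cells. Within the monocyte subgate the ratio was 1.36 for Ncf4 and 1.10 for Sod1. In the dendritic clusters led by Siglech and by Cd209a, Ncf4 was at 66.2 and 42.0 CPM and at 116 and 70.8 CPM. Sod2 had a ratio of 1.85 in erythroid cells and 0.396 in neutrophils. The median log2 ratio of all measured genes was 0.32 in erythroid cells and -0.06 in neutrophils. The erythroid ratio stayed past the fold in 7 of 10 alternatives. Without the 10 most abundant genes, where it was not past the fold, erythroid Sod2 was at 179 and 122 CPM. In the erythroid clusters led by Hemgn and by Tmcc2, Sod2 was at 71.4 and 56.0 CPM and at 24.4 and 18.6 CPM.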

How the results depend on the processing

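No paired analysis was possible because each group has 1 library. The lower Sod1 and Sod2 of CGG-Cit neutrophils, summed over the class, stayed past 1.5-fold under all 11 alternatives. The log2 ratios ran from -1.22 to -0.68 and from -1.38 to -1.22. Within single neutrophil clusters Sod1 was not past 1.5-fold in each, as given above. Scaling by the median of gene ratios moved all genes by -0.11 in neutrophils, 0.26 in dendritic cells and 0.34 in erythroid cells. Some alternatives left a class under 50 cells, endothelial cells most often, and gave no value there. Subtracting marker-scaled levels, leaving the 10 most abundant genes out of totals and taking off the erythroid level were chosen after seeing the data.

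With clusters in place of gates, 60 of 70 log2 ratios of single members kept their sign. Of those past 1.5-fold, those that reversed were Ncf4 in dendritic cells (-0.76 to 0.37), Cybb in erythroid cells (-1.18 to 0.12) and Ncf1 in mesenchymal cells (-0.92 to 0.24); subtracting marker-scaled levels reversed Cybb in mesenchymal cells (-0.72 to 0.12). The causes were not tested.

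The summed oxidase level in neutrophils, 5343 CPM in CGG-Cit and 4962 in CGG, became 5400 and 5070 with a margin of 0.20, 5402 and 5106 with clusters, 5176 and 4883 with doublets kept, 4907 and 4240 with thinning, 9731 and 8470 without the 10 most abundant genes, and 5239 and 4852 less the erythroid level. The oxidase median in monocytes or macrophages, -0.021, became 0.11 with the margin, 0.21 with clusters, 0.29 with thinning, 0.19 with a common monocyte and macrophage mix and -0.084 without the top 10 genes; the antioxidant median there, 0.27, became 0.19, 0.17, -0.033 and 0.21 with clusters, thinning, the common mix and no top 10 genes. In neutrophils the oxidase median of 0.21 became 0.32 by the median of ratios and 0.30 without the top 10, and the antioxidant median of -0.68 became -1.23 with thinning and -0.31 after subtraction.

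The 4 members higher in monocytes or macrophages became 2 with clusters, 2 with thinning and 1 at a fold of 2; the 2 lower in neutrophils and the 2 lower in B lineage cells each became 1 at a fold of 2. Over the other classes, the 4 higher calls became 9 with clusters, 2 with a minimum score of 0.35, with doublets kept or with at least 500 genes, and 1 by the median of ratios, with thinning, at a fold of 2 or without the top 10; the 13 lower calls became 7 with clusters and 5 at a fold of 2. Thinned to 2000 UMIs, 68.9% of CGG-Cit and 69.8% of CGG neutrophils had a Cybb UMI. The share of measured genes past the fold became 5.05% at a fold of 2 and 46.3% with no filter in neutrophils (main 13.2%), 16.7% and 56.2% in monocytes or macrophages (34.9%) and 3.77% and 42.9% in B lineage cells (12.9%).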
